A study of Mus musculus with 2 samples.

Results

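Sterol synthesis and cholesterol handling were followed here through 29 genes, all of them found among the 32285 gene features of the data. Of these, 18 encode enzymes that build cholesterol, 6 encode regulators and a sterol carrier (Insig1, Insig2, Scap, Srebf1, Srebf2 and Stard4), and 5 belong to cholesterol export and to the liver X receptors, LXR (Abca1, Abcg1, Nr1h2, Nr1h3 and Mylip). The list was drawn up by the genes' functions, with earlier results of these data known. The cells were live CD45-positive leukocytes taken by sorting from tumours grown under the skin of B6 mice, 14 days after B16.SIY cells had been injected. B16 is a mouse melanoma, here with the SIY model antigen. Before injection the tumour cells had received lentivirus with a control shRNA or an shRNA against Decr2, a peroxisomal enzyme of unsaturated fatty acid oxidation, and had been selected with puromycin at 1.5 µg/mL for 3 days. The knockdown was thus in the injected tumour cells, and the leukocytes came from the host. The control group and the Decr2 knock down group each consist of 1 droplet library of 3' transcript tags, and the number of mice behind each is not given in the sources used here. No test between the groups is therefore possible: every interval below is a 95% interval that covers counting error only.

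Cholesterol is built from acetyl-CoA through the mevalonate arm, which ends in farnesyl diphosphate, then through squalene and lanosterol, and last through a series of demethylation and reduction steps. When sterols in the endoplasmic reticulum are low, Scap carries the transcription factors Srebf1 and Srebf2 to the Golgi, where they are cut and released to switch on the synthesis genes, whereas Insig1 and Insig2 hold Scap back. When oxysterols accumulate, the receptors Nr1h2 (LXR beta) and Nr1h3 (LXR alpha) switch on the exporters Abca1 and Abcg1 and the ubiquitin ligase Mylip, which removes lipoprotein receptors. Activated and dividing lymphocytes are known to turn the first programme on and the second down.

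The upstream sequences of these genes carry letters known from this control. Promoter sequences were taken from RefSeq (build GRCm38.p6, the assembly also called mm10) for 24 of the 29 genes, and the 250 bases before the start were searched on both strands. The letters TCACNCCAC, the core of a sterol regulatory element, occurred in 1 of the 24, Hmgcs1, against 1.22% of all genes with a promoter entry. The CCAAT box, bound by NF-Y, a partner of the sterol regulatory factors, occurred in 19 of 24 against 37.5% of all genes. It was present upstream of 14 of 15 synthesis genes and 1 of 4 genes of the export group, Mylip. The GC box GGGCGG occurred in 21 of 24 against 35.4%. The LXR element known as DR4, matched without a mismatch, was found in none of them and in 0.015% of all genes, a window that leaves out any element farther upstream or in an intron. GC boxes are common near gene starts of all kinds, and these matches describe letters, not binding. The 160 bases before the start are given for 3 synthesis genes and 2 genes of the export group, as examples of both groups, picked after the matches were seen from 9 genes whose stretch lies wholly before the gene in both RefSeq and GENCODE M21. Capitals mark TCACNCCAC and CCAAT, the latter read as ATTGG where it lies on the other strand.
Hmgcs1, chr13:119690191-119690350, plus strand: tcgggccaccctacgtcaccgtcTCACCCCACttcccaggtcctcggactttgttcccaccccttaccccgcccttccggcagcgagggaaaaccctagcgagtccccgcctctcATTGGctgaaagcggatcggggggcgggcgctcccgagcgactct
Mvk, chr5:114444109-114444268, plus strand: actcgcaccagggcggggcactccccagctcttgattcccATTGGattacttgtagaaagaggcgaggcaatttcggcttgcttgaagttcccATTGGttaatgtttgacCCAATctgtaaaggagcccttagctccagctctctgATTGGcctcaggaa
Ebp, chrX:8193513-8193672, minus strand: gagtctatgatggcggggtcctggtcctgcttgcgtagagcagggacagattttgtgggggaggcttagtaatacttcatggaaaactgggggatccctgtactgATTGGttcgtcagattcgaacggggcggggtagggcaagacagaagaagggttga
Mylip, chr13:45389582-45389741, plus strand: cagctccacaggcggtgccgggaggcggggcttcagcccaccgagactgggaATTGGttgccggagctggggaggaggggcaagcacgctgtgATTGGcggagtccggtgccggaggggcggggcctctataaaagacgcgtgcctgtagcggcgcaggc
Abca1, chr4:53159896-53160055, minus strand: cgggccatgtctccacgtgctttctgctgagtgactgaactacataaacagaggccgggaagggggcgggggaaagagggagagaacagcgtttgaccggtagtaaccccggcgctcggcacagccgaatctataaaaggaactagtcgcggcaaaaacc
Hmgcs1 carried its sterol element from 137 to 129 bases before the start and a CCAAT box from 45 to 41 bases before it. Mvk held 4 CCAAT boxes in the stretch shown, Mylip 2, Ebp 1 and Abca1 none.

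The control library held 11335 barcodes and 47538493 UMIs (unique molecular identifiers, each standing for 1 captured transcript), and the knockdown library 9542 barcodes and 55417986 UMIs. After filters and removal of called doublets, 8950 and 6897 cells were kept, with medians of 2877.5 and 4443 UMIs. The knockdown library was thus the deeper one per cell, and levels are given as counts per 1000000 UMIs of the class (CPM). Barcodes shared by both libraries numbered 34, of which 24 were kept in both. Decr2 itself gave 18 UMIs in melanoma cells of the control library and 4 in those of the knockdown library. Over all kept cells it stood at 5.21 and 4.37 CPM. Genes of the dissociation stress response summed to 4955 CPM (control) and 4086 CPM (knockdown), and their part in the differences between libraries described below was not tested. Cells were assigned to classes by marker genes, so the levels of these markers describe the assignment and do not check it: CD3 genes stood at 2908 and 2761 CPM in CD8 T cells against 78 and 86 CPM in NK cells, and NK markers at 130 and 151 against 3318 and 3252 CPM. Cells that met no class made up 12.3% of the control and 9.69% of the knockdown library.

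Among cell classes, the synthesis genes were highest in plasmacytoid dendritic cells, the interferon-producing dendritic cells, and, among classes of at least 84 cells, lowest in B cells and NK cells. Their summed level in plasmacytoid dendritic cells was 2280 CPM (2142 to 2425) with control tumours and 1753 CPM (1646 to 1866) with knockdown tumours, from 104 and 86 cells. Melanoma cells that had passed the CD45 sort followed with 1717 and 1255 CPM, and conventional dendritic cells with 1509 and 1267 CPM. In both libraries plasmacytoid dendritic cells stood above both of these, while melanoma cells and conventional dendritic cells were apart in the control library and had overlapping intervals in the knockdown library. Mature dendritic cells had 1035 and 958 CPM from only 20 and 38 cells. Macrophages and monocytes (770 and 644 CPM), regulatory T cells (752 and 647 CPM) and CD8 T cells (706 and 557 CPM) lay close together. Regulatory T cells could not be told from macrophages and monocytes in either library by their intervals. CD4 T cells had 524 and 469 CPM, T cells of no further class 399 and 371 CPM, NK cells 325 and 285 CPM, and B cells 223 and 256 CPM. Of 2 further small classes, mast cells or basophils stood at 673 and 667 CPM from 34 and 19 cells, and neutrophils at 634 and 211 CPM from 12 and 7 cells. Depth per cell differed among the classes, with medians of 4082 and 6518 UMIs in plasmacytoid dendritic cells and 5732.5 and 9477 in CD8 T cells, and its part in the order was not tested.

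**Figure D1:**
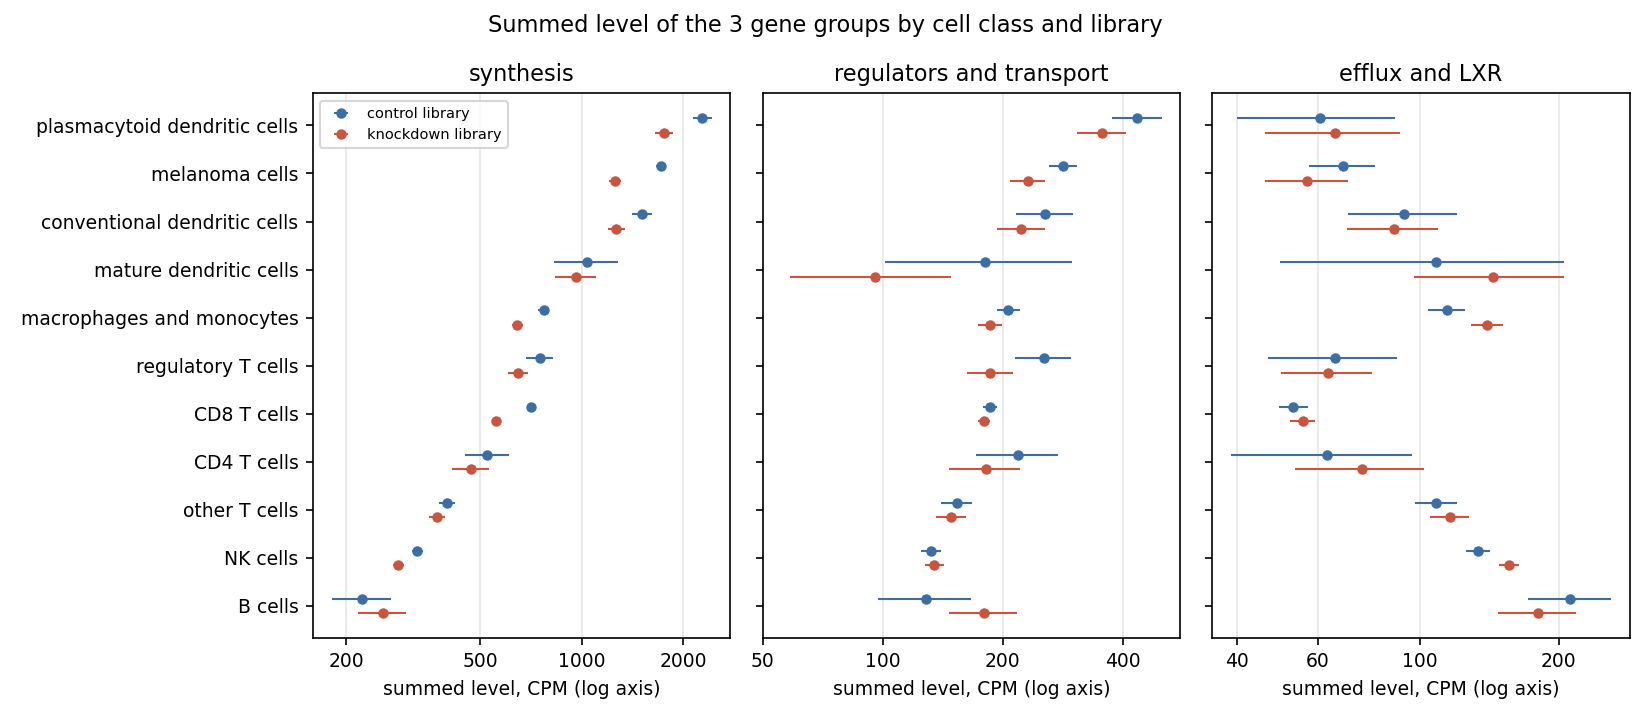
Summed CPM (log axis) of the 18 synthesis genes, the 6 regulators and transport genes and the 5 efflux and LXR genes in 11 cell classes. Points are the 2 libraries and bars 95% Poisson intervals. Synthesis is highest in plasmacytoid dendritic cells (2280 and 1753 CPM) and lowest in B cells (223 and 256 CPM), whereas the efflux group is highest in B cells (212 and 181 CPM).

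Single enzymes mostly followed the sum, with some exceptions. Fdps, farnesyl diphosphate synthase (chr3:89093588-89101959), reached 640 and 487 CPM in melanoma cells and 526 and 417 CPM in plasmacytoid dendritic cells, against 33.8 and 30.6 CPM in NK cells. In melanoma cells 1 cell gave 9.93% of the Fdps UMIs (control) and 20.6% (knockdown), so these sums lean on few deep cells. Hmgcs1, the synthase that feeds the mevalonate arm (chr13:119690379-119708260), was at 286 and 191 CPM in plasmacytoid dendritic cells and between 19 and 149 CPM in the other classes of at least 84 cells in both libraries. Pmvk, phosphomevalonate kinase, departed from the sum: its highest levels were in mature dendritic cells, at 361 and 321 CPM, above 169 and 142 CPM in plasmacytoid dendritic cells. Idi1, the isopentenyl diphosphate isomerase, was also high there, at 217 and 153 CPM. Insig2 was highest in melanoma cells, with 92.1 and 90.8 CPM, while its paralogue Insig1 (chr5:28071363-28078662) was highest in plasmacytoid dendritic cells, with 133 and 90 CPM. Dhcr7, which carries out the last reduction of the 7-dehydrocholesterol branch, stood at 71.9 and 47.8 CPM in plasmacytoid dendritic cells and at 40.4 and 52.7 CPM in melanoma cells. Tm7sf2, a sterol reductase, gave only 106 and 124 UMIs over all kept cells. Acat2, an acetyl-CoA thiolase, has a near-identical neighbouring copy, Acat3, which was listed with 3 and 2 UMIs, so reads shared by both could be missing from either.

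The efflux and LXR genes had another order of classes. Their sum was highest in B cells, at 212 CPM (171 to 260) and 181 CPM (147 to 219), followed by NK cells at 133 and 156 CPM and macrophages and monocytes at 114 and 140 CPM. It was lowest among the large classes in CD8 T cells, at 53 and 55.6 CPM. Abca1, the exporter to apolipoproteins, had its highest level in B cells, at 42.9 and 53.3 CPM, and was at most 7.6 CPM in every other class of at least 84 cells. Its level in B cells came from 19 and 31 UMIs in 19 and 25 cells, of 175 and 218 UMIs over all kept cells. Mylip had 69.9 and 60.2 CPM in B cells, 39.3 and 45.7 CPM in NK cells, and 3.9 and 5.32 CPM in CD8 T cells. Abcg1, the exporter to lipoprotein particles (chr17:31057675-31117988), was at 49.6 and 37.8 CPM in B cells, 31.9 and 40.2 CPM in NK cells and 35.2 and 58.5 CPM in macrophages and monocytes, but at 6.59 and 6.31 CPM in CD8 T cells. Nr1h2 ranged from 29.2 to 61.8 CPM over B, NK and CD8 T cells and macrophages and monocytes. Nr1h3, in contrast, gave 58 and 66 UMIs in all, 21 and 24 of them in macrophages and monocytes.

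Set against NK cells directly, CD8 T cells had 2.17 times the synthesis sum in the control library (2.08 to 2.27) and 1.95 times in the knockdown library (1.87 to 2.04). A ratio was called high at or above the inverse of 0.8, and low at or below 0.8. High ratios were found for 18 of 18 measured synthesis genes in the control library and 16 of 18 in the knockdown library, against 29.8% and 28.2% of all genes measured. A gene counted as measured with at least 50 UMIs over the cells compared. In both libraries the intervals lay above 1 for 14 of them, against 28.2% of the genes measured in both. The regulators Insig1, Scap, Srebf2 and Stard4 were also higher in CD8 T cells in both libraries. Insig2 went the other way in the control library, with an interval below 1. The 4 measured export genes were all lower, each at a ratio of at most 0.8 (36.7% and 38.2% of all genes), and the sum stood at 0.397 (0.362 to 0.436) and 0.356 (0.328 to 0.386). Both classes came from the same libraries but differed in depth per cell, with medians of 2442 and 3567.5 UMIs in NK cells. They also differed in the share of cycling cells, called as described below. It was 39.6% and 39.9% in CD8 T cells and 4.29% and 4.81% in NK cells. Among non-cycling cells the synthesis sums were 569 and 441 CPM in CD8 T cells and 314 and 273 CPM in NK cells. The part of depth or of cycling was not tested.

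As a share of all UMIs, synthesis transcripts were higher and efflux transcripts lower in cycling than in non-cycling CD8 T cells of both libraries. Cells were called cycling from 17 proliferation genes after each cell had been thinned to 1000 UMIs, and 39.6% of CD8 T cells (control) and 39.9% (knockdown) met the call. The synthesis sum was 569 CPM in 1077 non-cycling and 793 CPM in 705 cycling cells of the control library, giving a ratio of 1.39 (1.34 to 1.45). In the knockdown library it was 441 CPM in 861 and 631 CPM in 572 cells, giving a ratio of 1.43 (1.37 to 1.49). Of the measured synthesis genes, 10 of 17 in the control library and 13 of 18 in the knockdown library had a high ratio, against 23.2% and 25% of all genes measured, and none a low one, against 25.5% and 26.9%. Their median log2 ratios were 0.31 and 0.28, where all genes had -0.01 and -0.01. Cycling cells were also deeper, with medians of 11157 against 3920 UMIs in the control library and 17174 against 6643 UMIs in the knockdown library. Depth and the synthesis level moved together within CD8 T cells: in the control library the sum was 321 CPM in cells with 1000 to 3000 UMIs and 857 CPM in those with 12000 to 24000. How much of the cycling difference goes with depth was not tested.

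By role, the mevalonate arm differed more than the late steps. Its sum was 1.48 (1.39 to 1.58) and 1.63 (1.53 to 1.74) times higher in cycling CD8 T cells, against 1.29 (1.21 to 1.38) and 1.30 (1.22 to 1.38) for the enzymes after lanosterol. Of the 17 enzymes measured in both libraries, 9 lay above 1 by their intervals in each, against 21.8% of all genes measured in both, namely Acat2, Hmgcs1, Pmvk, Idi1, Fdps, Sqle, Cyp51, Msmo1 and Ebp. Idi1 was at 48 CPM in non-cycling and 79.4 CPM in cycling cells of the control library, and at 29.8 and 62.2 CPM in the knockdown library, ratios of 1.65 (1.43 to 1.91) and 2.08 (1.78 to 2.44). Fdps was at 82.8 and 130 CPM, and at 57.4 and 103 CPM, ratios of 1.56 (1.40 to 1.75) and 1.79 (1.60 to 2.01). Sqle, squalene epoxidase and the first oxygen-requiring step, had ratios of 1.71 (1.39 to 2.12) and 1.32 (1.07 to 1.64). Sc5d, a late desaturase, was higher in cycling cells in the control library, at 1.63 (1.34 to 2), but its interval held 1 in the knockdown library, at 1.05 (0.881 to 1.26). Mvd, the decarboxylase of the mevalonate arm, had ratios of 1.01 and 0.988, and Lss, which closes the sterol rings, 1.15 in both, with intervals that held 1. Among the regulators, Insig1 (1.26 and 1.30) and Stard4, a carrier of cholesterol between membranes (1.37 and 1.49), were higher in cycling cells in both libraries. Insig2 was lower, at 0.838 (0.647 to 1.09) and 0.746 (0.605 to 0.920), the second alone leaving out 1.

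The efflux group went the other way, its sum having ratios of 0.645 (0.557 to 0.746) in the control library and 0.585 (0.516 to 0.663) in the knockdown library. Mylip had 8.21 CPM in non-cycling and 1.16 CPM in cycling CD8 T cells of the control library, and 11.5 and 1.35 CPM in the knockdown library, ratios of 0.141 (0.0635 to 0.284) and 0.118 (0.0631 to 0.206). Abcg1 had 11.7 and 3.36 CPM, and 11.1 and 3.25 CPM, ratios of 0.288 (0.179 to 0.453) and 0.293 (0.192 to 0.441). Nr1h2 was lower by less, at 0.845 (0.715 to 0.999) and 0.775 (0.672 to 0.895). Low ratios were thus met by 2 of 3 measured efflux genes in the control library and 3 of 3 in the knockdown library, against 25.5% and 26.9% of all genes. Abca1 gave 1 UMI in the cycling cells of each library against 7 and 12 in the non-cycling cells, too few to be measured. Cells led by S-phase genes and cells led by G2/M genes had nearly the same synthesis sum, with ratios of G2/M to S of 0.990 (0.935 to 1.05) and 0.950 (0.897 to 1.00).

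**Figure D2:**
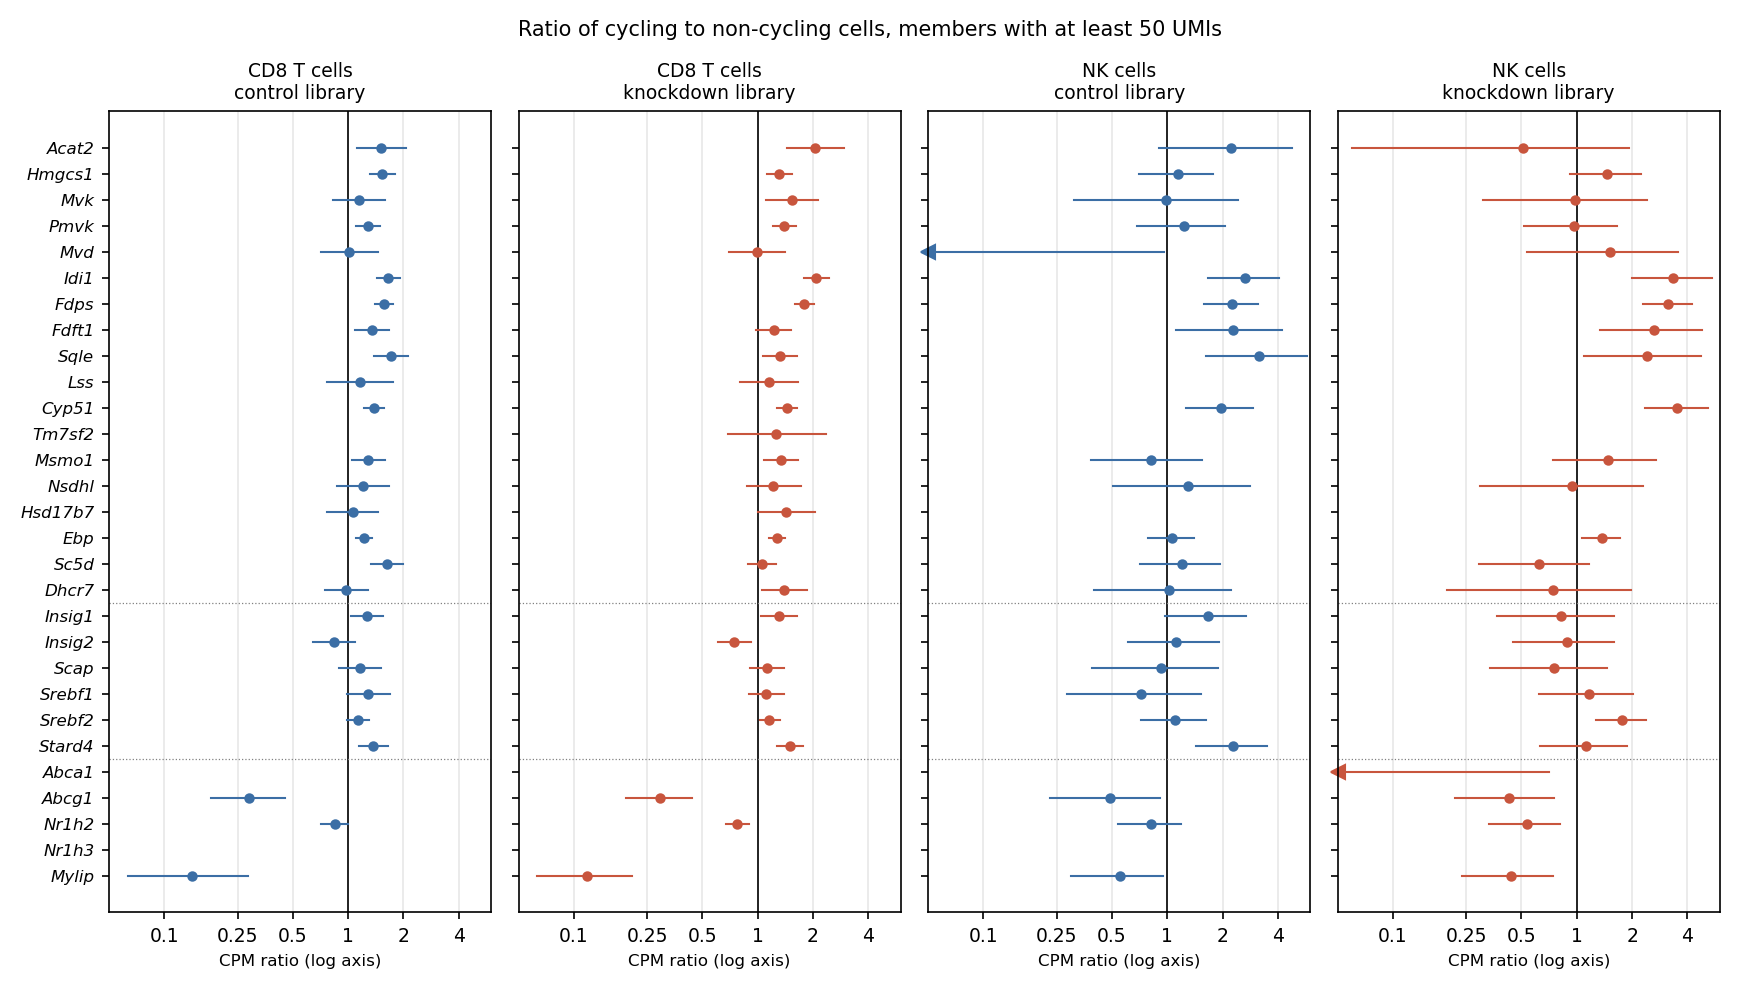
Ratio of cycling to non-cycling cells (log axis) for each member with at least 50 UMIs, in CD8 T and NK cells of the 2 libraries, with 95% counting intervals; dotted lines part synthesis, regulators and efflux genes. An arrowhead at the left edge marks a gene with 0 UMIs in cycling cells. Synthesis genes such as Idi1 (1.65 and 2.08 in CD8 T cells) lie mostly to the right of 1 and Abcg1 and Mylip to its left in all 4 panels.

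In NK cells, with 130 and 110 cycling cells, the summed levels differed in the same directions. Their synthesis sum was 1.44 (1.27 to 1.63) and 1.62 (1.44 to 1.83) times that of non-cycling NK cells, with 7 and 9 of 15 measured genes at high ratios, against 23.5% and 22.1% of all genes, and 1 and 3 at low ratios, against 31.7% and 26.5%. Mvd had 0 UMIs in the cycling NK cells of the control library, with an interval below 1, and a ratio of 1.53 (0.535 to 3.55) in the knockdown library. Idi1, Fdps, Fdft1, Sqle and Cyp51 lay above 1 in both libraries, where 6.64% of all genes measured in both did, and Cyp51, the lanosterol demethylase, had ratios of 1.95 (1.26 to 2.92) and 3.53 (2.34 to 5.19). The efflux sum was 0.657 (0.493 to 0.860) and 0.458 (0.338 to 0.607) times that of non-cycling cells, with Abcg1 and Mylip below 1 in both. In the knockdown library cycling and non-cycling NK cells had close depths, 3974.5 and 3592.5 UMIs, while in the control library the medians were 3987.5 and 2439 UMIs. Regulatory T cells gave 828 and 711 CPM in 31 and 38 cycling cells against 674 and 592 CPM in non-cycling ones.

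The synthesis level was also followed over the number of proliferation genes with a UMI in the thinned cell. CD8 T cells with no proliferation gene had 474 and 376 CPM of synthesis transcripts, and those with 1 such gene 714 and 563 CPM. Cells with 2 to 3 had 803 and 677 CPM, with 4 to 5, 808 and 622 CPM, and with 6 or more, 754 and 562 CPM.

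**Figure D3:**
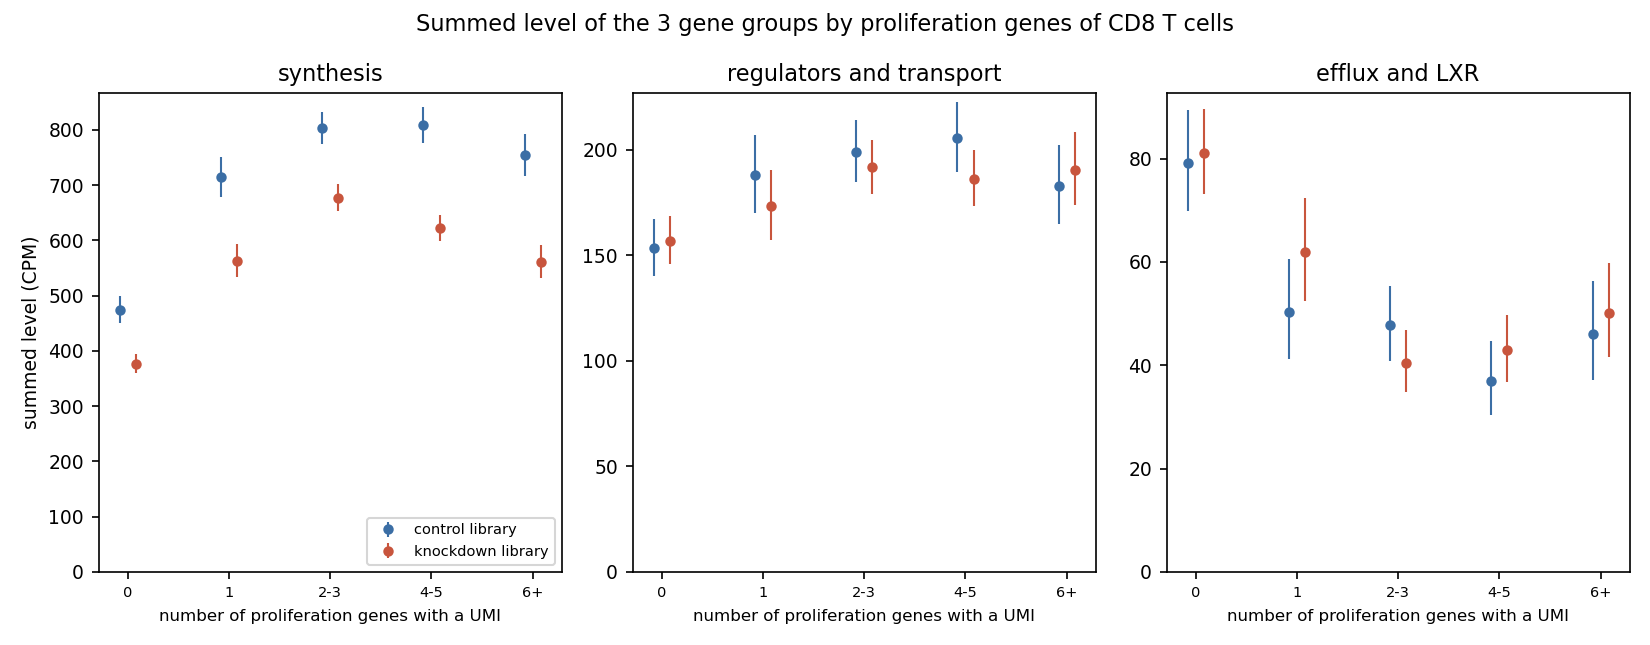
Summed CPM of the 3 gene groups in CD8 T cells of the 2 libraries by the number of proliferation genes with a UMI in the thinned cell, with 95% Poisson intervals. Synthesis is lowest in cells with no proliferation gene (474 and 376 CPM) and reaches its upper level at 2 to 3 (803 and 677 CPM).

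As a share of all UMIs, synthesis transcripts were lower in the knockdown than in the control library in most classes. In CD8 T cells the sum was 706 CPM with control tumours and 557 CPM with knockdown tumours, giving a ratio of 0.788 (0.767 to 0.810). Of 18 measured genes, 10 were at or below 0.8, against 7.22% of all genes measured, and none was high, against 7.8%. Intervals lay below 1 for 14 of them, against 15.1% of all genes, and above 1 for none, against 11.2%, and the median log2 ratio was -0.27 where all genes had -0.01. The stress genes were lower in the same cells, at 2329 and 1907 CPM, and melanoma markers stood at 102 and 79.2 CPM. The part of either in the difference was not tested.

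By step, the mevalonate arm had a ratio of 0.767 (0.736 to 0.8), the squalene and lanosterol steps 0.745 (0.680 to 0.816) and the later steps 0.820 (0.786 to 0.854). In the mevalonate arm, Acat2 was at 15.1 and 10.1 CPM, giving a ratio of 0.669 (0.546 to 0.819), and Idi1 at 67.1 and 49.5 CPM, giving a ratio of 0.737 (0.672 to 0.809). Hmgcs1 was at 54.5 and 40.4 CPM, giving a ratio of 0.742 (0.670 to 0.822). Fdps was at 111 and 85.2 CPM (0.764), and Pmvk at 56.2 and 46.8 CPM (0.833), both with intervals below 1. Mevalonate kinase, Mvk, at 11.9 and 10.2 CPM, and Mvd had ratios of 0.857 and 0.813 with intervals that held 1. Sqle was at 32.7 and 22.1 CPM (0.677) and Fdft1, squalene synthase, at 28.1 and 21.1 CPM (0.753), whereas Lss was at 7.58 and 7.63 CPM, with an interval that held 1. Among the later steps, Hsd17b7 (0.676), Nsdhl (0.701), Msmo1 (0.712), Cyp51 (0.752), Dhcr7 (0.814), Sc5d (0.839) and Ebp (0.921) all had intervals below 1. Msmo1, Nsdhl and Hsd17b7 act one after another to remove the methyl groups at carbon 4 of the sterol. Ebp, the sterol isomerase, was the most abundant of the later enzymes, at 113 and 105 CPM, and Tm7sf2 had a ratio of 0.954 (0.626 to 1.46).

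Among the regulators Insig1 alone had an interval below 1 in CD8 T cells, at 31.3 and 19.9 CPM, giving a ratio of 0.634 (0.550 to 0.730), the lowest of all measured members. Srebf2 was at 61 and 60.1 CPM, giving a ratio of 0.985 (0.900 to 1.08), and Stard4 at 0.956 (0.854 to 1.07). Insig2, Scap and Srebf1 had ratios of 1.15, 1.16 and 1.11, all with intervals that held 1. The efflux sum was 53 and 55.6 CPM, giving a ratio of 1.05 (0.953 to 1.15), and its highest member was Mylip at 1.37 (0.971 to 1.94). In CD8 T cells 14 of 18 enzymes had intervals below 1, against 15.1% of all genes, as did Insig1. The intervals of Insig2, Scap, Srebf1, Srebf2 and Stard4 held 1. What lies behind this was not tested.

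**Figure D4:**
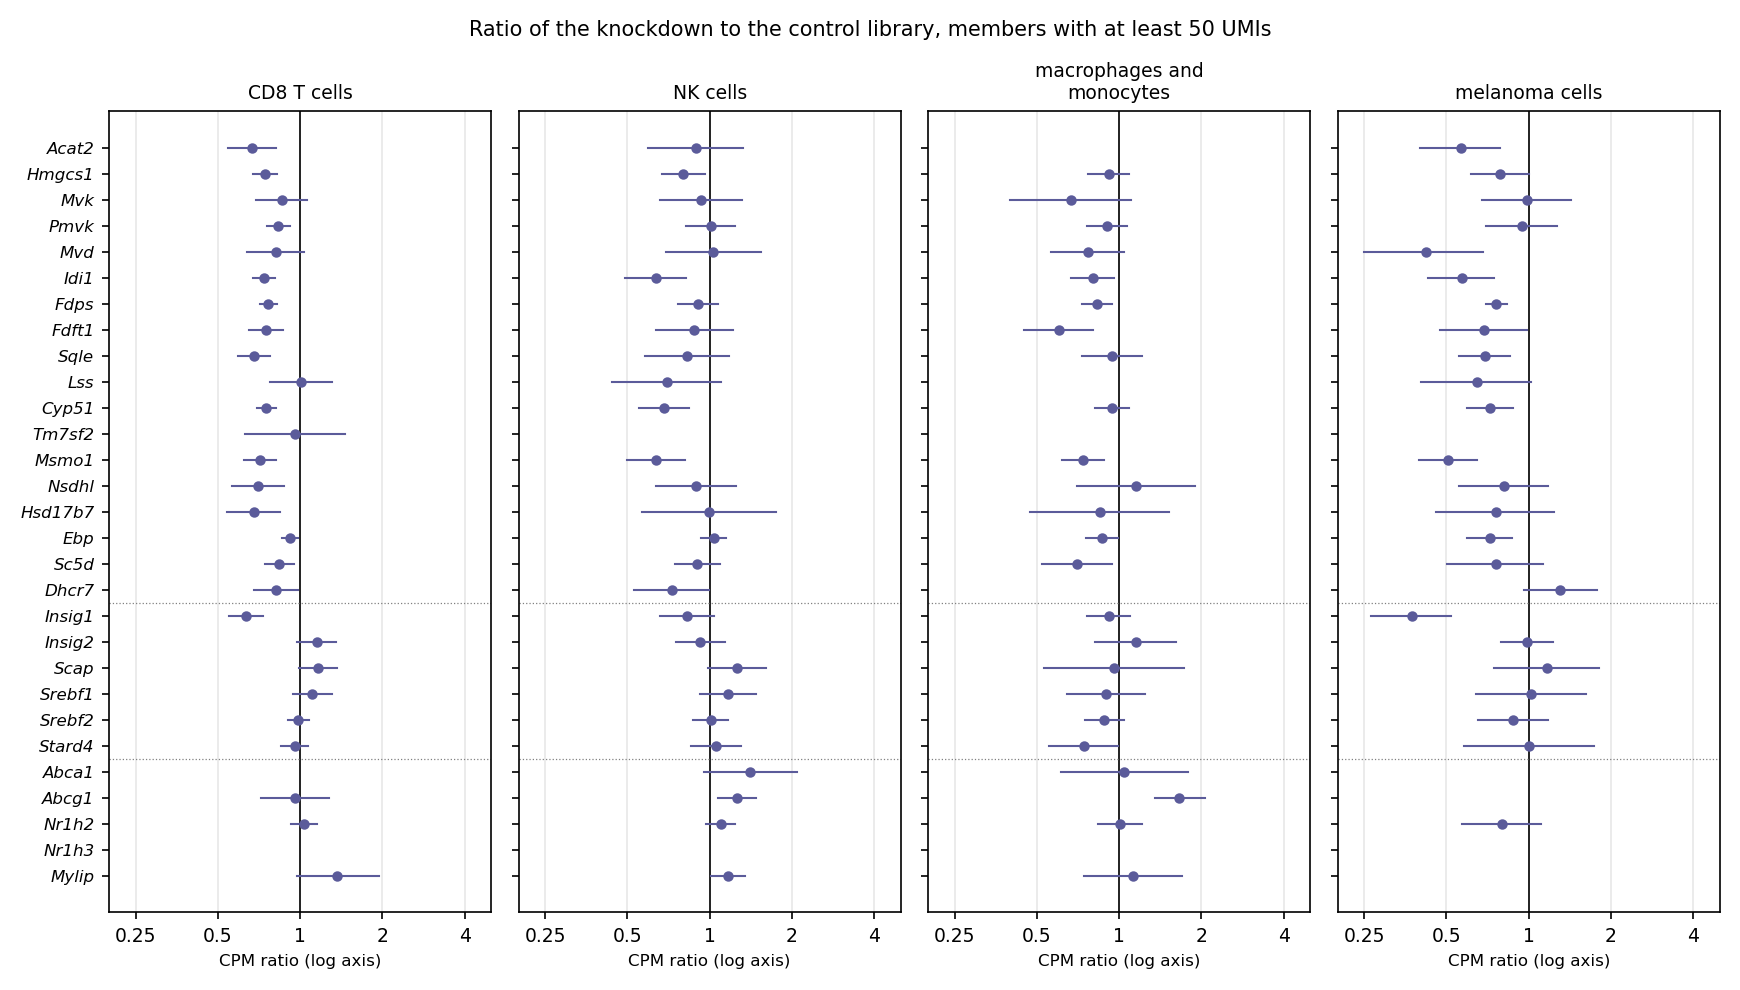
Ratio of the knockdown to the control library (log axis) for each member with at least 50 UMIs in 4 cell classes, with 95% counting intervals; dotted lines part synthesis, regulators and efflux genes. In CD8 T cells 14 of 18 synthesis genes lie wholly left of 1, and Abcg1 lies right of 1 in NK cells (1.26) and in macrophages and monocytes (1.66).

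Within CD8 T cells the ratio was 0.795 (0.769 to 0.823) in cycling and 0.775 (0.737 to 0.814) in non-cycling cells, with overlapping intervals. Ratios of at most 0.8 were found for 11 of 18 genes in cycling and 10 of 17 in non-cycling cells, against 7.86% and 10.6% of all genes. Cells were also split by UMI number, a split chosen after seeing the data. Between cells of 1000 to 3000 UMIs, of which the knockdown library held 39, the ratio was 0.769 (0.479 to 1.18), and between cells of 3000 to 6000 UMIs 0.584 (0.521 to 0.654). Between cells of 6000 to 12000 UMIs the sum was 681 and 406 CPM, giving a ratio of 0.597 (0.561 to 0.634), and between cells of 12000 to 24000 UMIs 857 and 603 CPM, giving a ratio of 0.703 (0.674 to 0.734). Such bands do not match cells, since the knockdown library was deeper and 52.8% of control but 25.6% of knockdown cells with 6000 to 12000 UMIs were cycling. The share of CD8 T cells with a synthesis UMI, after thinning to 1000 UMIs, was 40.5% (38.2 to 42.8) and 33.2% (30.8 to 35.7), and 82.2% and 86.7% without thinning. B cells, the class of at least 84 cells with the lowest level, gave 20.7% and 22.2% after thinning.

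Regulatory T cells had 752 and 647 CPM, giving a ratio of 0.861 (0.767 to 0.968) from 122 and 151 cells. With 8 synthesis genes measured, 4 were at or below 0.8, against 15.1% of all genes, and 3 had intervals below 1, against 5.83%. Msmo1 was at 86.6 and 31.5 CPM, giving a ratio of 0.364 (0.235 to 0.561), Fdft1 at 44.1 and 18.6 CPM (0.422, 0.231 to 0.764), and Hmgcs1 at 71.9 and 37.2 CPM (0.518, 0.335 to 0.801). Insig1 had a ratio of 0.521 (0.326 to 0.835) and Srebf2 one of 0.660 (0.457 to 0.957), while Ebp was at 1.21 (0.926 to 1.59). Pmvk and Cyp51 were at 0.990 and 0.957, so the ratios differed widely among the enzymes of these cells. Macrophage markers were higher in the knockdown library's regulatory T cells, at 124 against 32.7 CPM, and melanoma markers were lower, at 93.8 against 165 CPM. The part of either was not tested.

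In NK cells the sum was 325 and 285 CPM, giving a ratio of 0.877 (0.831 to 0.925), and 5 of 17 measured synthesis genes were at or below 0.8, against 6.07% of all genes. Idi1 (0.635, 0.491 to 0.819), Msmo1 (0.639, 0.499 to 0.815), Cyp51 (0.682, 0.552 to 0.842), Dhcr7 (0.726, 0.528 to 0.995) and Hmgcs1 (0.802, 0.670 to 0.960) had intervals below 1, against 8.34% of all genes. Ebp, the most abundant, had 82.9 and 85.8 CPM, giving a ratio of 1.03 (0.934 to 1.15), and without it the log2 ratio of the sum was -0.28 in place of -0.19. Of 4 measured export genes, 2 had intervals above 1 in the knockdown library, against 10.7% of all genes. Abcg1 was at 31.9 and 40.2 CPM, giving a ratio of 1.26 (1.08 to 1.48), and Mylip at 39.3 and 45.7 CPM, giving a ratio of 1.17 (1.01 to 1.35). Abca1 was at 5.35 and 7.52 CPM, giving a ratio of 1.40 (0.953 to 2.09), and Nr1h2 had one of 1.10 (0.970 to 1.24). By the size of the ratio, Abcg1 and Abca1 were high, against 8.94% of all genes. Melanoma markers in NK cells were at 265 and 222 CPM, and their part was not tested. No regulator had an interval apart from 1, with Scap highest at 1.26 (0.986 to 1.61).

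Macrophages and monocytes had 770 and 644 CPM of synthesis transcripts, giving a ratio of 0.836 (0.795 to 0.880), with 5 of 14 measured genes at or below 0.8, against 11.6% of all genes. Fdft1 was at 31 and 18.7 CPM, giving a ratio of 0.602 (0.450 to 0.802), Sc5d at 0.703 (0.524 to 0.941) and Msmo1 at 0.736 (0.617 to 0.877). Idi1 (0.8), Fdps (0.831) and Ebp (0.865) were also below 1 by their intervals, so that 6 of 14 were, against 11% of all genes. The carrier Stard4 (0.741) was below 1 too. Hmgcs1 (0.914) and Cyp51 (0.942) were not, and Nsdhl was highest, at 1.15 (0.703 to 1.89). Abcg1 was at 35.2 and 58.5 CPM, giving a ratio of 1.66 (1.35 to 2.05), from 142 UMIs in 108 cells and 257 UMIs in 175 cells. Of the 4 measured efflux genes it alone had a high ratio, against 10.8% of all genes, and the efflux sum had a ratio of 1.22 (1.08 to 1.38). Abca1, Nr1h2 and Mylip had ratios of 1.04, 1.00 and 1.12. Of the 29 Abca1 UMIs in the control library, 34.5% came from 1 cell. Stress genes in these cells were at 12087 and 10371 CPM the macrophage markers at 1001 and 781 CPM and the monocyte markers at 3989 and 4770 CPM, and their part was not tested. Cells were called C1q-positive with UMIs of at least 2 of the genes C1qa, C1qb and C1qc, and C1q-negative otherwise. In the C1q-negative cells the synthesis ratio was 0.876 (0.830 to 0.925), with 2 of 13 measured genes below 1 by their intervals, against 10.1% of all genes.

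Macrophages and monocytes called C1q-positive, after the complement C1q genes, numbered 66 and 52. In the control library their synthesis sum was 1182 CPM against 734 CPM in C1q-negative cells, giving a ratio of 1.61 (1.45 to 1.79), with Fdps at 274 against 121 CPM. In the knockdown library it was 662 against 643 CPM, giving a ratio of 1.03 (0.898 to 1.18), with Fdps at 114 against 111 CPM. High ratios were reached by 8 of 11 and 2 of 11 measured synthesis genes, against 25.5% of all genes in each library. The efflux sum was higher in C1q-positive cells in both, at 1.83 (1.39 to 2.39) and 1.67 (1.31 to 2.12), and Abcg1 had ratios of 2.05 and 1.94. The difference between the libraries' ratios was not tested.

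Melanoma cells, the cells in which Decr2 was targeted, had the lowest ratio of synthesis among the 7 classes compared between the libraries, 0.731 (0.692 to 0.771), with an interval that overlapped that of CD8 T cells. Of 17 measured genes 13 were at or below 0.8, against 13.8% of all genes, and 9 had intervals below 1, against 8.24%. The share of cells with a synthesis UMI after thinning to 1000 UMIs was not lower, at 52.8% (41.9 to 63.5) of 89 control and 57.5% (45.9 to 68.5) of 80 knockdown cells with overlapping intervals, and was 76.4% and 68.8% without thinning. Of the 2072 synthesis UMIs in the knockdown library 805 were Fdps, which leaned on 1 cell as given above. Insig1 was at 76 and 28.5 CPM, giving a ratio of 0.375 (0.265 to 0.522). Mvd (0.419), Msmo1 (0.508), Acat2 (0.563) and Idi1 (0.568) followed, and Fdft1, Sqle, Cyp51, Ebp and Fdps also had intervals below 1, between 0.688 and 0.761. Dhcr7 was highest, at 1.31 (0.957 to 1.78), and Scap was at 1.16. These are 148 and 180 cells that passed a sort for CD45, with medians of 1268 and 879.5 UMIs, so they need not represent the tumour cells of either group. T cells of no further class had a ratio of 0.930 (0.861 to 1.01), with 3 of 14 measured genes low, against 9.64%, and 2 high, against 10.2%. B cells had one of 1.15 (0.884 to 1.49), and no synthesis gene was measured in them. Over all 7 classes compared, Msmo1 was below 1 by its interval in 5 of the 6 classes where it was measured, and Idi1 and Fdft1 in 4 of 6. In these classes no measured synthesis gene or regulator was above 1 by its interval, against 11.2% of all genes in CD8 T cells and 10.7% in NK cells. No measured efflux gene was below 1, but only 4 were measured in NK cells and in macrophages and monocytes, and fewer elsewhere. Of all genes 8.34% and 11% were below 1 in these 2 classes, so none among so few is near that share.

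Neighbouring lipid pathways were set beside these values. Of the 12 genes of fatty acid synthesis, 8 were measured in CD8 T cells. Between the libraries 1 was at or below 0.8, against 7.22% of all genes, and none was high, against 7.8%. By intervals 2 lay below 1 and 1 above it, against 15.1% and 11.2%. The sum of the 12 genes had a ratio of 0.957 (0.908 to 1.01). The ratio was 0.900 (0.826 to 0.981) in non-cycling CD8 T cells, 0.962 (0.903 to 1.02) in NK cells, 0.879 (0.786 to 0.984) in macrophages and monocytes and 0.772 (0.714 to 0.833) in melanoma cells, where sterol synthesis had 0.775, 0.877, 0.836 and 0.731. In CD8 T cells Fasn, the fatty acid synthase, was at 34.9 and 32.8 CPM (0.938), Scd2, a stearoyl desaturase, at 0.832 (0.736 to 0.939) and Elovl5, an elongase, at 1.21 (1.06 to 1.38). Among lipid uptake genes, 3 of 7 measured, the fatty acid binding protein gene Fabp5 was at 191 and 149 CPM in CD8 T cells, giving a ratio of 0.777 (0.737 to 0.820). In NK cells the same gene was at 40.7 and 53.7 CPM, giving a ratio of 1.32 (1.15 to 1.52). Genes of storage, lysosomal release and oxysterols, 7 of 10 measured, had a ratio of 0.960 (0.926 to 0.996) in CD8 T cells and of 1.24 (1.2 to 1.28) in macrophages and monocytes. Most of the latter was Npc2, the lysosomal sterol-binding protein, with a ratio of 1.29 (1.24 to 1.33). Fabp4 was at 36.9 and 15.7 CPM in macrophages and monocytes, giving a ratio of 0.425 (0.315 to 0.569). The sum of the 4 other LXR targets had a ratio of 0.973 (0.915 to 1.03) in CD8 T cells and 0.944 (0.887 to 1.01) in NK cells. In macrophages and monocytes it was 0.978 (0.937 to 1.02). Of the 4 genes there, 2 had intervals below 1, against 11% of all genes, and 1 above it, against 730 of 7903. That sum thus joins genes with ratios on both sides of 1. In cycling against non-cycling CD8 T cells fatty acid synthesis had ratios of 1.01 (0.934 to 1.10) and 1.12 (1.04 to 1.21), below those of sterol synthesis. The other LXR targets had 0.495 (0.451 to 0.542) and 0.521 (0.480 to 0.565), with Arl4c at 0.336 and 0.299 and Smpdl3a at 0.464 and 0.468. Low ratios were met by 3 of 4 genes in the control and 2 of 4 in the knockdown library, against 25.5% and 26.9% of all genes. In each library 1 of the 4 had a ratio above 1. In the knockdown library that ratio was high, against 25% of all genes, with an interval above 1.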

How the data were processed

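Leukocytes from 2 groups of mouse melanomas were profiled with 1 droplet library each. The authors deposited unnormalized UMI counts per gene and barcode, made with Cell Ranger 6.1.2 per the file headers; Seurat 4.3 and the mm10 build are named in the submitters' processing notes. Whether lanes or mice were pooled is not given in the sources used here. From the deposited counts, barcodes with at least 500 UMIs, 200 genes and at most 10% mitochondrial UMIs were kept, and the highest Scrublet scores were removed as doublets (0.8% per 1000 barcodes). Cells were classed by at least 2 markers of a lineage, and cells of more than 1 lineage (2.45% and 3.71%) were left out. The gates for macrophages and melanoma cells were sharpened from markers alone after the files were seen.

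UMIs were summed per class and library and divided by the class total. Levels have exact Poisson intervals, ratios exact conditional binomial intervals and shares Clopper-Pearson intervals, all at 95% and for counting error only. Log2 ratios of genes used a pseudocount of 10 CPM. Classes with at least 100 cells per library were compared. Named were members with at least 50 UMIs whose interval left out 1 and the highest and lowest ratios. In comparisons within a library, by class, cycling or C1q, not all such members were named. With 1 library per group no test was run. The intervals were run on CD8 T cell sums simulated with Poisson error alone, the error they assume, and 95.5% held the true ratio. Such counts leave variation between cells, mice and libraries unchecked. The members and gene lists were chosen with earlier results of these data known. The alternatives were other filters, doublets kept, other gates, clusters in place of gates, thinned cells, equal weight per cell, other cycling calls and leaving out the most abundant member. Scanpy 1.11.5 was used for clustering. RefSeq promoters were used for 24 of 29 members. Chromosome 18, which holds Stard4, was left out of the search, for the members and for all genes. A split of non-cycling CD8 T cells by a further marker list is not reported here.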

Additional observations from a re-analysis of the deposited data

How the results depend on the processing

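On the log2 scale, the synthesis sum of CD8 T cells between the libraries was -0.34. It was -0.42 with cells thinned to 1000 UMIs, -0.28 with classes from clusters and -0.39 without Ebp. Bands of cell depth, chosen after seeing the data, gave -0.78 (3000 to 6000 UMIs), -0.75 (6000 to 12000) and -0.51 (12000 to 24000). In regulatory T cells -0.22 became -0.41 with doublets kept. In NK cells -0.19 became -0.31 when thinned and -0.28 without Ebp, and in macrophages and monocytes -0.26 became -0.37 with clusters. The efflux sum of macrophages and monocytes went from 0.29 to 0.52 without Nr1h2. Cycling against non-cycling CD8 T cells gave 0.48 (control) and 0.52 (knockdown). These became 0.71 and 0.76 with equal weight per cell, 0.57 and 0.88 when thinned, 0.32 and 0.26 with clusters, 0.32 and 0.36 with 3 proliferation genes, and 1.02 and 1.16 with the cycling call on all UMIs; the cause was not tested. The same depth bands gave ratios of 0.582 to 0.973 in NK cells and 0.661 to 0.869 in macrophages and monocytes, apart from 3.50 (1.95 to 6.91) in the 2 and 9 macrophages and monocytes with 12000 to 24000 UMIs. No other alternative changed a direction, and 63 values stayed inside the interval set for them. For list medians of log2 ratios that interval was the median of the single genes' bounds, which is not the counting error of the median. No list median could be given for B cells, where no synthesis gene was measured. No paired analysis was possible because each group has 1 library, and for the same reason no replicate could be left out. The libraries differed in depth per cell, and small classes limit precision: regulatory T cells had 122 and 151 cells.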

Other observations

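Cells that met no class (1105 from the control, 668 from the knockdown tumours) had 930 and 918 CPM of synthesis transcripts. Cells with markers of more than 1 lineage had 1206 and 905 CPM and carried melanoma markers at 5871 and 5172 CPM.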
